A study of Mus musculus with 95 samples.

Results

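Hematopoietic stem cells (HSC) sorted from mouse bone marrow 10 to 16 weeks after transplantation were compared with HSC of unmanipulated mice, to ask which transcripts stood at their steady-state level by then and which did not. The late window was defined by its collection times and held 9 libraries, 3 each at 10, 13 and 16 weeks (1 title of the first group reads 10k and was read as 10 weeks). Steady state was represented by replicates 2 to 8, so that 16 of the 95 libraries of the series entered the comparison. Replicate 1 of the steady-state HSC was left out of the main comparison because its counts were close to those of another library, replicate 1 of the HPC-2 progenitors at 13 weeks (chi-square per degree of freedom 4.50, against at least 38.2 for any pair that included a compared library). All mice are labelled strain B6.SJL and age 8-12 weeks. Whether that is the age at transplantation or at collection is not stated. Mice sampled 10 to 16 weeks after transplantation may have been older at collection than steady-state mice. Steady-state mice carried no treatment. The late libraries came from recipients that had been lethally irradiated with 900 cGy and given 8000 LSK cells, the lineage-negative, c-Kit-positive, Sca-1-positive cells that hold stem cells and early progenitors. Marrow enriched for c-Kit was sorted as live LSK CD48- CD150+ cells. The same gate is given for the HSC and for both progenitor populations of the series, and no donor marker is named. The labels do not say that replicates came from separate animals, so p-values measure the spread between these samples, which may be technical.

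HSC sit at the top of the blood lineage and are mostly quiescent in an undisturbed marrow. After transfer into an irradiated host they divide to rebuild blood, and they are generally held to slow again once the system has filled up. Genes such as Hlf, Meis1 and Mecom encode transcription factors of stem cell identity, whereas DNA replication and mitosis genes follow division, and platelet genes such as Pf4 are read in a megakaryocyte-biased share of HSC.

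Total counts ran from 4552549 to 6436255 over the 16 libraries. Detected genes ranged from 6628 to 14133 in the late libraries (11801 ± 2640, SD, n = 9) and from 7779 to 14940 at steady state (12381 ± 2986, SD, n = 7), and the group means did not differ in a 2-sided exact permutation test over 11440 arrangements (p = 0.677). Libraries with fewer than 10000 detected genes were steady-state replicates 3 and 8, replicate 2 at 13 weeks and replicate 3 at 16 weeks. All 16 libraries held transcripts of Hlf, Meis1 and Procr, 3 HSC markers. Slamf1, which encodes the sort marker CD150, was at 0 in 1 late library, replicate 2 at 16 weeks, where a count of 0 allows up to 0.475 CPM (3 counts per library, counting error only). Cd48, the marker that was sorted against, had a median of 1.05 CPM (counts of the gene divided by the library total and scaled to the same total in every library) at steady state and 9.59 CPM in the late window, with maxima of 60.2 and 68.9 CPM. By rank correlation with the mean profile of each population, 8 of 9 late libraries and 5 of 7 steady-state libraries were nearest to HSC. The exceptions, replicate 1 at 13 weeks and steady-state replicates 2 and 5, were nearest to the HPC-1 progenitors.

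**Figure D1:**
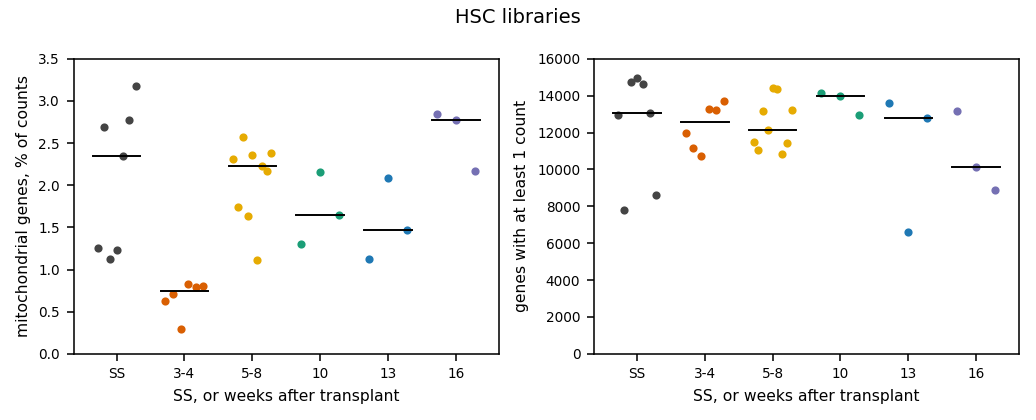
Share of counts from the mitochondrial genome (percent) and number of detected genes in each HSC library, by group (SS, steady state). Points are libraries and lines are group medians; the late libraries, at 6628 to 14133 genes and 1.12% to 2.84%, overlap those of steady state, at 7779 to 14940 genes and 1.12% to 3.18%, while the libraries of weeks 3 and 4 all lie at a mitochondrial share of 0.826% or less.

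No gene was called different between the late window and steady state. Of 10506 genes tested, 0 (0%) passed an adjusted p of 0.05 in edgeR's quasi-likelihood test with Benjamini-Hochberg adjustment, and no adjusted p was under 0.999999. Genes are therefore described by their levels, by their log2 difference ± its SE and by the number of late libraries on one side of the steady-state median. At an unadjusted p under 0.05, 51 genes (0.485%) were higher and 69 (0.657%) lower. These 120 genes fall short of the share of 0.05 that a calibrated test passes on average with no difference. The lack of calls is therefore no measure of closeness to steady state. The count at that threshold was 195 in DESeq2, 1153 in limma voom with sample weights, and 3188 of 23136 genes in edgeR without a filter. DESeq2 called 0 genes and limma voom with sample weights 6. The median log2 difference over all genes was -0.04, and 47.2% of genes had a late value above steady state.

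The absence of calls was not the same as a measured return. Among the 8198 genes whose mean reached 10 CPM, the 95% interval of the difference lay within a 2-fold change either way for 848 (10.3%). The median standard error of these genes was 0.98 on the log2 scale, so a typical gene could differ several-fold without being detectable with these replicates. The narrow intervals belonged mostly to abundant transcripts, as the plot of differences against level shows. All 39 cytosolic ribosomal protein genes tested were among the 848, with 16 of 39 above 0 and a median log2 difference of -0.01. Without the 4 libraries of few detected genes the interval lay within 2-fold for 1778 genes.

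**Figure D2:**
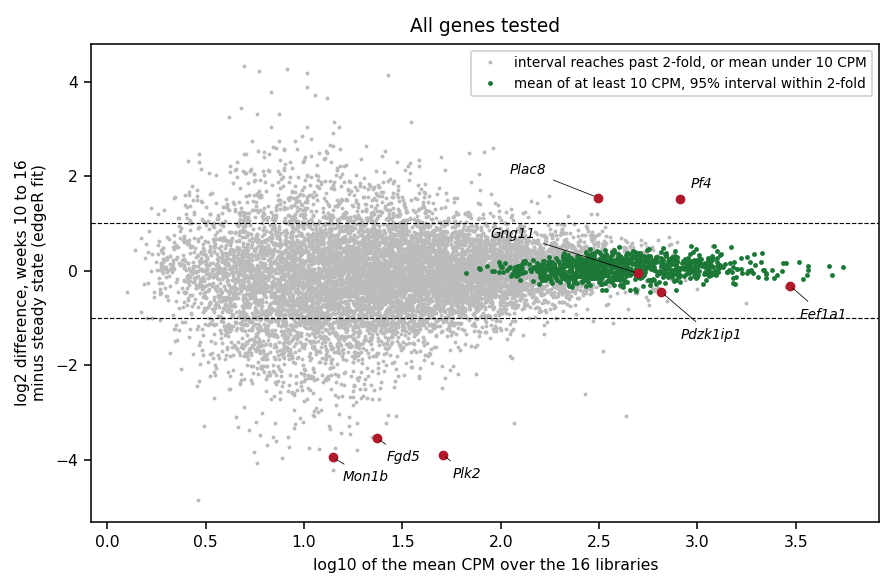
Log2 difference of the late window from steady state for each of the 10506 genes tested, against its mean level (log10 CPM). Green points are the 848 genes of at least 10 CPM whose 95% interval lay within a 2-fold change (dashed lines), which lie mostly at the right, among abundant genes, and red points are genes described in the text.

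Of 28 HSC identity genes, 0 were called and 5 had an interval within 2-fold. With 1 library left out that bound was lost in 7 of 16 fits for Angpt1, 4 for Meis1 and 1 for Ly6a, and in 0 for Pdzk1ip1 and Myct1. DESeq2 also lost it for Angpt1. With steady-state replicate 1 kept it was lost for Myct1 and Ly6a. Fitting the 12 libraries whose column names start with 61 to 96, in blocks of 12 numbers, lost it for Pdzk1ip1, Meis1, Angpt1 and Ly6a. Of the 28 genes 7 were above 0 (25.0%, against 47.2% of all genes), with a median log2 difference of -0.32 beside -0.04 for all genes. Angpt1, which encodes the Tie2 ligand angiopoietin-1, ranged from 461 to 1255 CPM (median 613) at steady state and from 292 to 675 CPM (median 492) in the late window, a log2 difference of -0.46 (95% interval -0.95 to 0.04). Meis1, a homeodomain factor required for HSC maintenance (chromosome 11, 18879817 to 19018985, minus strand), ran from 86.1 to 377 CPM (median 281) at steady state and from 125 to 398 CPM (median 247) late. Its log2 difference was 0.19 (-0.51 to 0.89), and the groups covered nearly the same range.

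Ly6a, which encodes the sort marker Sca-1, spanned 227 to 796 CPM (median 352) at steady state and 172 to 623 CPM (median 365) in the late window. The log2 difference of 0.16 had an interval of -0.53 to 0.85, and the groups overlapped throughout. Myct1, a regulator of HSC function, was measured at 295 to 497 CPM (median 375) at steady state and at 228 to 662 CPM (median 289) late. Its log2 difference was -0.22 (-0.71 to 0.28), and 2 of 9 late libraries were above the steady-state median.

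Pdzk1ip1 (chromosome 4, 115088708 to 115093899, plus strand), an HSC-enriched gene whose product dampens TGF-beta signaling, had the narrowest interval of the list, and that interval excluded 0. Its level was 581 to 935 CPM (median 778) at steady state and 418 to 722 CPM (median 578) late. All 9 late libraries were under the steady-state median while the ranges overlapped, and the log2 difference was -0.45 (-0.87 to -0.03), which did not pass adjustment.

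The 2 identity genes Fgd5 and Robo4 were low in most late libraries, with wide errors, and neither was called. Fgd5, a guanine-nucleotide exchange factor used as an HSC reporter locus (chromosome 6, 91978878 to 92076004, plus strand), had 9.95 to 107 CPM (median 38.6) at steady state and 0 to 11.1 CPM (median 0.893) late. The groups overlapped only at their edges, 4 late libraries were at 0, and the log2 difference was -3.54 ± 1.26 (SE, n = 9 and 7). An antisense transcript overlaps Fgd5, and no strand setting is given in the sources used here, so its counts are uncertain. Robo4, a guidance receptor that takes part in HSC niche localization, went from a steady-state median of 10.7 CPM (0.191 to 66.5) to a late median of 0.186 CPM (0 to 8.87), with a difference of -3.76 ± 1.42.

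The transcription factors Hlf and Mecom were not separated from steady state either. Hlf had a median of 201 CPM (35.4 to 415) at steady state and 100 CPM (53.7 to 282) late, with a log2 difference of -0.68 ± 0.46. Mecom had a median of 66.8 CPM (8.38 to 142) at steady state and 82.1 CPM (43.6 to 125) late, a difference of 0.44 ± 0.57. Kit, the stem cell factor receptor and a sort marker, stood at 122 to 517 CPM (median 153) and 103 to 266 CPM (median 191). The ranges of all 3 overlapped widely.

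Genes linked to dormancy lay below steady state as a group. Of 15 tested, 2 were above 0 (13.3%), the median log2 difference was -0.85, and 0 were called. None had an interval within 2-fold. Egr1, an immediate early factor that also restrains HSC cycling, had 179 to 998 CPM (median 508) at steady state and 71.1 to 710 CPM (median 120) late. In 8 of 9 late libraries it was under the steady-state median, with a difference of -1.10 ± 0.48. Nr4a1, an orphan nuclear receptor of quiescent HSC, had medians of 19.6 and 6.90 CPM and a difference of -2.48 ± 1.14. Cdkn2c, which encodes the cell-cycle inhibitor p18, was 1 of the 2 members above 0. It had 0 to 26.6 CPM (median 15.4) at steady state and 19.6 to 135 CPM (median 30.3) late, a difference of 1.92 ± 1.04. All 9 late libraries were above the steady-state median of Cdkn2c. Txnip, a redox regulator of quiescent HSC, had medians of 245 and 173 CPM and a difference of -0.75 ± 0.42.

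Genes reported to accumulate in aged HSC showed no common direction. Of 21 tested, 9 were above 0, the median was -0.18, and 0 were called. Nupr1, a stress-response cofactor, had medians of 171 CPM at steady state and 236 CPM late (0.60 ± 0.40), whereas Alcam, an adhesion molecule, had medians of 71.1 and 10.3 CPM (-1.88 ± 1.06). Sult1a1, a sulfotransferase, had 146 to 355 CPM (median 284) at steady state and 22.7 to 409 CPM (median 80.2) late. It was under the steady-state median in 7 of 9 late libraries, at -0.86 ± 0.49 in edgeR. limma voom with sample weights gave Sult1a1 -2.16 and an adjusted p of 0.00342.

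**Figure D3:**
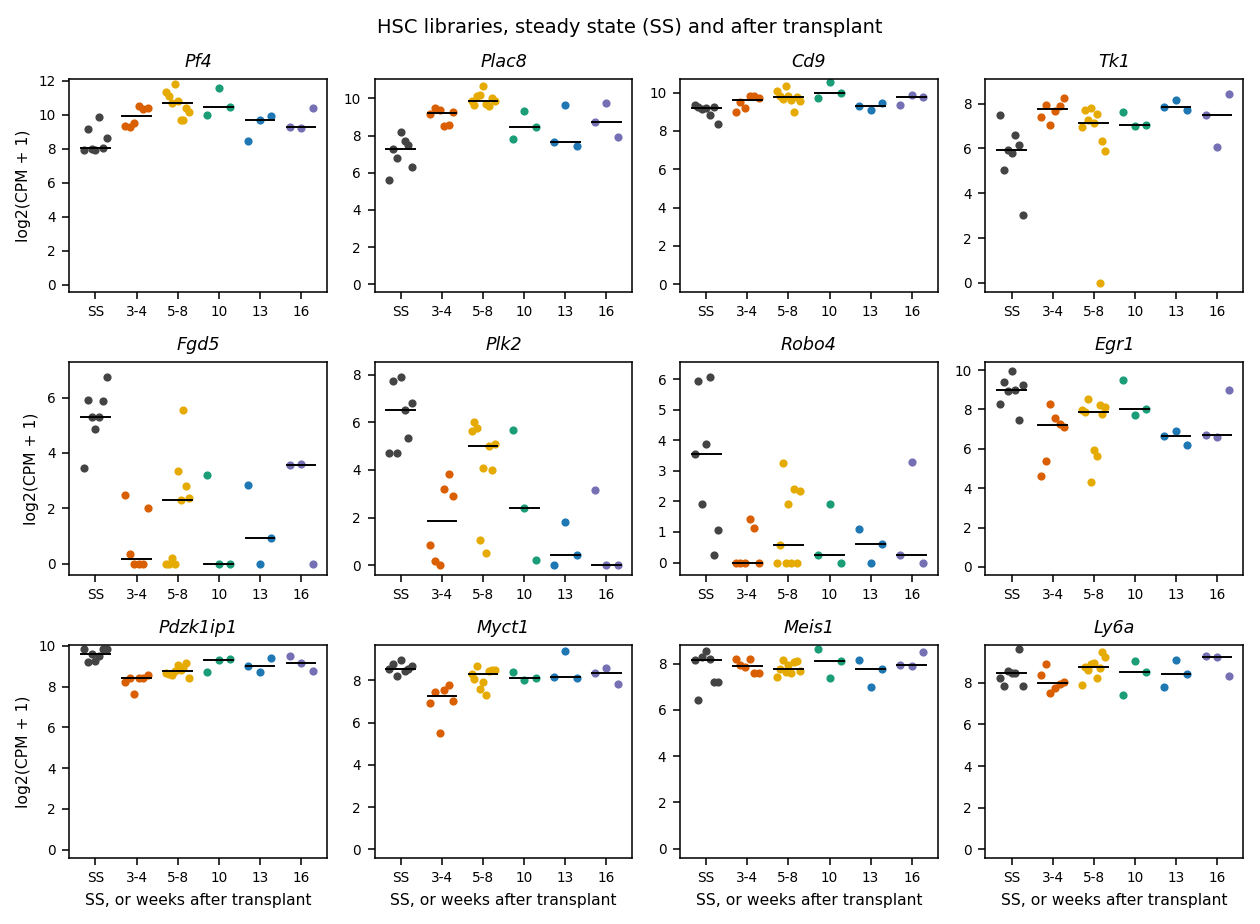
Level of 12 genes in each HSC library, as log2(CPM + 1), by group (SS, steady state, then weeks after transplantation). Points are libraries and lines are group medians; the points of Pf4, Plac8 and Tk1 sit mostly higher at 10 to 16 weeks than at steady state, those of Fgd5, Plk2 and Robo4 mostly lower, and those of Meis1 and Ly6a overlap throughout.

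The genes with the smallest p-values on the higher side included markers of platelets and of progenitors. Pf4, the platelet chemokine (chromosome 5, 90772435 to 90773383, plus strand), had 240 to 941 CPM (median 260) at steady state and 356 to 3022 CPM (median 974) late. All 9 late libraries were above the steady-state median, although the ranges overlapped, and the log2 difference was 1.51 ± 0.42. Plac8, a gene of multipotent progenitors and lymphoid-myeloid priming (chromosome 5, 100553725 to 100572245, minus strand), had 47.4 to 294 CPM (median 155) at steady state and 174 to 871 CPM (median 349) late. It too was above the steady-state median in 9 of 9 late libraries, at 1.55 ± 0.43. Neither was called.

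Megakaryocyte and platelet genes were mostly on the higher side with Pf4. Of 15 tested, 12 were above 0 (80.0%), the median log2 difference was 0.72, and 0 were called. Cd9, a tetraspanin of the megakaryocyte lineage and of HSC, had 327 to 648 CPM (median 578) at steady state and 544 to 1488 CPM (median 843) late, a difference of 0.70 ± 0.24. Rab27b, which acts in platelet granule release, had medians of 45.3 and 95.7 CPM and a difference of 1.21 ± 0.63. For both, 8 of 9 late libraries were above the steady-state median. Multipotent progenitor genes had 9 of 13 above 0 and a median of 0.24 in edgeR (-0.22 in limma voom), and 5 of the 6 progenitor markers tested were above 0 (median 0.51). Emb, a glycoprotein of multipotent progenitors, was on the lower side at -1.07 ± 0.58, and Il12a of the lymphoid list on the higher side at 1.00 ± 0.40.

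Most genes of DNA replication had values above 0, and mitosis genes lay on both sides; the difference between the lists was not tested. Of 27 replication genes, 24 were above 0 (88.9%), the median was 0.38, and 0 were called, whereas 13 of 26 mitosis genes were above 0 with a median of -0.03. Tk1, thymidine kinase (chromosome 11, 117815526 to 117826092, minus strand; it overlaps Afmid), had 7.03 to 179 CPM (median 60.0) at steady state and 66.5 to 343 CPM (median 199) late. All 9 late libraries were above the steady-state median of Tk1, and the difference was 1.48 ± 0.53. Tyms, thymidylate synthase, had medians of 202 and 360 CPM (0.67 ± 0.32). Pcna, the sliding clamp of DNA polymerases, had medians of 403 and 622 CPM (0.54 ± 0.28). Among mitosis genes, Top2a, the chromosome-decatenating topoisomerase, had medians of 63.8 and 128 CPM (0.85 ± 0.53), and the spindle checkpoint gene Mad2l1 158 and 269 CPM (0.51 ± 0.35). With steady-state replicate 1 kept, 15 of 27 replication genes were above 0. The mitosis median ran from -0.25 to 0.47 with 1 library left out.

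Nuclear genes of oxidative phosphorylation were measured more tightly. Of 37, 24 had an interval within 2-fold, 32 were above 0 (86.5%), the median was 0.23, and 0 were called. Over 13 other settings the share above 0 ran from 54.1% to 89.2% and the median from 0.034 to 0.41. With 1 library left out they ran from 81.1% to 94.6% and from 0.14 to 0.37. Cox5a, a cytochrome c oxidase subunit, had 132 to 282 CPM (median 239) at steady state and 275 to 411 CPM (median 332) late. The groups overlapped at their edge alone, and the difference was 0.62 ± 0.23. Atp5o, an ATP synthase subunit, had medians of 592 and 748 CPM (0.49 ± 0.21). Protein genes of the mitochondrial genome had 2 of 10 above 0, a median of -0.06 and 6 intervals within 2-fold. Their median ran from -0.18 to 0.16 with 1 library left out, and without the 4 libraries of few detected genes 10 of 10 were above 0 (median 0.27). The mitochondrial share of counts was 1.95% ± 0.61 (SD, n = 9) late and 2.08% ± 0.86 (SD, n = 7) at steady state (exact permutation p = 0.719, 2-sided). Nhp2, a component of small nucleolar ribonucleoproteins, led the ribosome biogenesis genes with medians of 321 and 483 CPM (0.70 ± 0.29), and 18 of 27 of that list were above 0 (median 0.12).

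**Figure D4:**
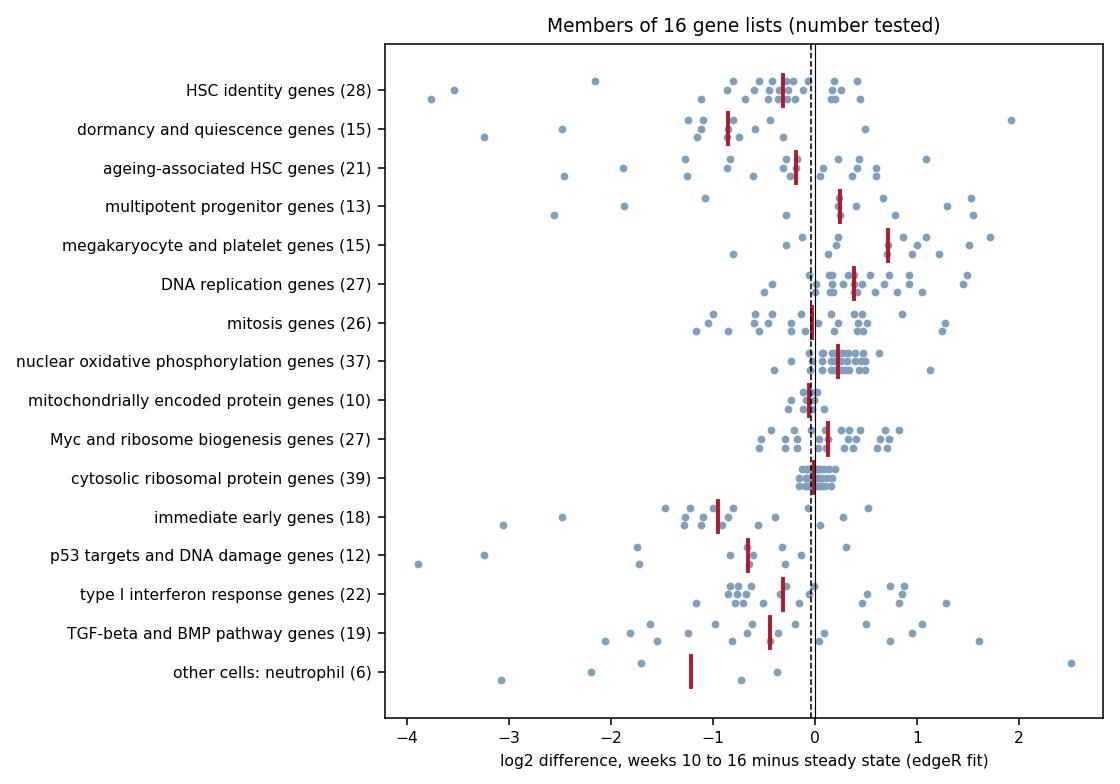
Log2 difference of the late window from steady state for every tested member of 16 gene lists. Grey points are genes, red bars list medians, and the dashed line the median of all genes tested (-0.04); the medians of megakaryocyte and DNA replication genes lie above the line and those of dormancy, immediate early and p53 genes below it.

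Immediate early, p53 and NF-kB genes lay mostly under steady state, with 0 called. Some members are also on the dormancy list, among them Egr1 and Nr4a1 (immediate early) and Cdkn1a (p53), so the counts are not independent. Immediate early genes, which are induced within minutes of a stimulus, had 3 of 18 above 0 (16.7%) and a median of -0.95. Junb, an AP-1 subunit, had medians of 118 and 52.2 CPM (-1.22 ± 0.58). Targets of p53 and DNA damage genes had 1 of 12 above 0 and a median of -0.65. Plk2, a polo-like kinase induced by p53 and by serum (chromosome 13, 110395046 to 110400844, plus strand), had 24.9 to 239 CPM (median 91.6) at steady state and 0 to 50.8 CPM (median 0.357) late. All 9 late libraries were under the steady-state median of Plk2, 3 of them at 0, and the difference was -3.89 ± 1.31. The late median of Plk2 lies under what a count of 0 allows (0.466 to 0.659 CPM). NF-kB and chemokine genes had 2 of 12 above 0 (median -0.69), and TGF-beta and BMP pathway genes 7 of 19 (median -0.44).

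Interferon-responsive genes held members on both sides. Type I interferon genes had 7 of 22 above 0 and a median of -0.31. Ifi27, an interferon-inducible gene (chromosome 12, 103434211 to 103440239, plus strand), was on the higher side, with 137 to 304 CPM (median 190) at steady state and 292 to 430 CPM (median 357) late. All 9 late libraries were above the steady-state median of Ifi27, at 0.82 ± 0.24. Xaf1, a pro-apoptotic interferon target, had medians of 156 and 104 CPM (-0.79 ± 0.47). Immunoproteasome and MHC class I genes had 10 of 17 above 0 and a median of 0.09, with Psmb8, an immunoproteasome subunit, at 613 and 742 CPM (0.34 ± 0.18).

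Markers of other marrow cells varied widely within both groups. The summed level of 8 neutrophil genes ran from 0 to 6429 CPM at steady state (median 3740) and from 0 to 6270 CPM late (median 168). Ngp, a neutrophil granule protein, was at 0 in 2 of 7 steady-state and 3 of 9 late libraries, with maxima of 2540 and 354 CPM. Red cell genes summed to 6.72 to 3069 CPM at steady state and 8.56 to 2342 CPM late, and B cell genes to at most 721 and 177 CPM. The 10 monocyte genes, mostly Lyz2, summed to 1078 to 1812 CPM and 930 to 1743 CPM. Cd14, Csf1r, Adgre1 and Mrc1 were at 0 in all late libraries and in 4, 5, 5 and 4 of 7 steady-state libraries. The remaining members had counts in some late libraries. Maxima at steady state and late were 41.6 and 42.1 CPM for C1qc, 35.1 and 7.19 for C1qb, and 11.0 and 0.184 for C1qa. They were 419 and 9.41 CPM for Ly6c2 and 80.2 and 4.09 for Vcam1. Endothelial genes had a summed level of 145 to 435 CPM at steady state and 116 to 260 CPM late, while the defining markers Plvap and Cdh5 were at 0 in all 16 libraries, as were the T cell genes Cd3e, Cd3g and Cd8a. Other T and NK cell genes had counts in some libraries. Klrb1c reached 24.1 CPM at steady state and 17.0 CPM late, Cd3d 2.30 and 3.04 CPM, and Trac 0.164 and 3.11 CPM. The part of neutrophil, red cell and B cell transcripts in the lists above was not tested. In whole sorted populations, fewer cells of a kind and less RNA per cell cannot be told apart.

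Other genes with the smallest p-values came from no list. Adk, adenosine kinase, had 91.2 to 297 CPM (median 172) at steady state and 189 to 812 CPM (median 402) late (1.20 ± 0.35). The non-coding RNA 4930519L02Rik had 125 to 308 CPM (median 137) and 180 to 674 CPM (median 417), a difference of 1.21 ± 0.35. Both were above the steady-state median in 9 of 9 late libraries. On the lower side, Mon1b, a factor of endosome maturation, had medians of 13.0 and 1.12 CPM (-3.95 ± 1.11) and shares its locus with Syce1l on the same strand. Ttc3, a ubiquitin ligase, had medians of 162 and 44.3 CPM (-1.46 ± 0.55). Eef1a1, the translation elongation factor, had a small difference with a small error: 2827 to 4268 CPM (median 3288) at steady state against 2311 to 3143 CPM (median 2466) late, or -0.32 ± 0.11, with all 9 late libraries under the steady-state median. Eef1a1 has processed copies in the genome, which makes its count uncertain.

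No overlap between the groups was found for 2 genes. Phf11d, a PHD-finger gene (chromosome 14, 59347407 to 59365470, minus strand), was the only gene with every late library above every steady-state library (0.00952% of genes tested), and Spen, a transcriptional corepressor (chromosome 4, 141467890 to 141538597, minus strand), the only one with every late library below (0.00952%). Both were chosen after their values were seen. With exchangeable libraries, 1 in 11440 arrangements separates the groups fully in a given direction, and 10506 genes were tested, so counts of this size can arise by chance. Phf11d had 0 to 40.4 CPM (median 31.9) at steady state and 84.5 to 310 CPM (median 107) late, a difference of 2.60 ± 0.92. Spen had 12.7 to 81.3 CPM (median 21.8) and 0 to 11.2 CPM (median 4.66), a difference of -2.68 ± 1.04. The Phf11 genes are closely related neighbors, and Spen overlaps Zbtb17, so that both counts are uncertain. The genes that limma voom called were Stmn1, a microtubule destabilizer of proliferating cells (0.73, adjusted p = 0.0163), and Ranbp1, a Ran-binding protein (0.65, adjusted p = 0.0486), on the higher side, and Sult1a1, Fam241b, Fxyd1 and Ehhadh on the lower. Stmn1 had 750 to 1458 CPM (median 892) at steady state and 900 to 1733 CPM (median 1439) late. Its late level exceeded the steady-state median in 9 of 9 libraries.

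Each late week was also set against steady state by itself. Of 12887 genes tested, edgeR called 0 (0%) at each of 10, 13 and 16 weeks. At an unadjusted p under 0.05, 69 genes (0.535%) were higher and 195 (1.51%) lower at 10 weeks, 73 (0.566%) and 523 (4.06%) at 13 weeks, and 173 (1.34%) and 931 (7.22%) at 16 weeks. Detected genes ran from 12943 to 14133 at 10 weeks, 6628 to 13620 at 13 weeks and 8873 to 13146 at 16 weeks. The part of library complexity in these counts was not tested. DESeq2 called 48, 124 and 445 genes at these weeks and limma voom 36, 0 and 0, so the counts depend on the tool. Pf4 had log2 differences of 2.23, 0.74 and 1.21 at 10, 13 and 16 weeks, and Plac8 1.50, 1.25 and 1.86. Fgd5 was at -4.20, -4.44 and -2.65. These genes were chosen on the pooled late window, and the 3 comparisons share the steady-state libraries. Each week also had its own run of numbers in the column names. Hlf was at -1.63, -0.81 and -0.03, and Sult1a1 at -2.50, -0.60 and -0.29. Leaving out replicate 1 at 16 weeks gave 7 calls at that week, and leaving out the libraries of few detected genes gave 15.

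Within the late window, a slope per week was fitted over the 9 libraries. Of 11340 genes, edgeR called 0 (0%), with 85 slopes above 0 (0.75%) and 194 below (1.71%) at an unadjusted p under 0.05, and the smallest adjusted p was 0.89. DESeq2 called 17 and limma voom 0. Dusp1, a phosphatase of the immediate early response, had the smallest p of the lower side: its 3 libraries had 1705, 854 and 1238 CPM at 10 weeks, 981, 218 and 616 at 13 weeks, and 268, 339 and 114 at 16 weeks. The 10-week libraries were above the 16-week libraries without overlap, and the slope was -0.38 log2 units per week. At steady state Dusp1 ran from 174 to 1948 CPM (median 727), so both ends lay within or near its range. Of 18 immediate early genes, 1 had a slope above 0 (median -0.23 per week), and Ier2 of that list was at -0.25.

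Ribosomal and mitochondrial transcripts had slopes on the other side. All 39 cytosolic ribosomal protein genes had slopes above 0 (median 0.09 per week), as did all 10 mitochondrially encoded genes tested (median 0.13), against a median of -0.03 for all genes, and 0 were called. mt-Rnr2, the large mitochondrial ribosomal RNA, had 1375, 2307 and 1760 CPM at 10 weeks, 1288, 2720 and 1910 CPM at 13 weeks, and 3416, 3147 and 4464 CPM at 16 weeks, a slope of 0.18. Slc14a1, a urea transporter, had 308, 164 and 258 CPM at 10 weeks and 22.0, 73.4 and 18.6 CPM at 16 weeks, a slope of -0.43. All 6 neutrophil genes tested had slopes above 0, among them Retnlg at 1.30. At 16 weeks Retnlg had 542, 22.3 and 557 CPM, while no library of 10 or 13 weeks exceeded 6.97 CPM. Detected genes also differed by week: 14133, 13980 and 12943 at 10 weeks, 13620, 6628 and 12775 at 13 weeks and 13146, 10113 and 8873 at 16 weeks. The 100 most abundant genes took 16.1% to 18.8% of counts at 10 weeks and 19.4% to 20.5% at 16 weeks. Each late week had its own run of column numbers (which start the column names), shared with steady-state replicates 6, 7 and 8 in order of week. Those untransplanted replicates had 14627, 13041 and 8590 detected genes. Their 100 most abundant genes took 16.8%, 19.4% and 20.7% of counts, and their mitochondrial shares were 2.34%, 2.77% and 3.18%. Within the late window, week and column number cannot be told apart. The part of neutrophil transcripts, library complexity and column number in the slopes was not tested.

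The late window was then compared with the libraries of weeks 3 and 4 after transplantation (6 libraries), to see what separates the end of the course from its start. In this fit with steady state and weeks 5 to 8, 33 of 12513 genes (0.264%) were called, 32 higher late (0.256%) and 1 lower (0.00799%). All 6 early libraries were nearest to a progenitor population by rank correlation, 5 to HPC-1 and 1 to HPC-2. The calls rest on few libraries: 3 genes passed without replicate 1 at 3 weeks, 17 and 15 without replicates 2 and 3 at 3 weeks, 13 without replicate 1 at 4 weeks and 20 without replicate 2 at 16 weeks, while 106 passed without replicate 1 at 10 weeks and 216 without replicate 1 at 13 weeks. No gene passed when all 3 libraries of week 3 and replicate 1 of week 4 were left out together (smallest edgeR adjusted p = 0.897). All 33 genes kept their sign in each of these fits. The early and the late libraries also had separate runs of column numbers. Window and column number therefore cannot be told apart in this comparison.

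Transcripts of the mitochondrial genome gave 9 of the 33 calls. In limma voom 15 of the 33 passed, and mt-Rnr1, mt-Rnr2, mt-Nd2, mt-Nd4 and mt-Nd6 did not (limma adjusted p from 0.0538 to 0.0934). Of 10 mitochondrially encoded protein genes tested, 7 rose, 10 were above 0 and the median log2 difference was 1.80, beside -0.04 for all genes, and both mitochondrial ribosomal RNAs rose too. mt-Rnr2 (mitochondrial genome, 1094 to 2675, plus strand) had 434 to 973 CPM (median 639) at weeks 3 and 4 and 1288 to 4464 CPM (median 2307) late. Every late library was above every early library, and the difference was 1.95 ± 0.33 (edgeR adjusted p = 0.00794). mt-Nd4, a subunit of complex I whose reading frame overlaps that of mt-Nd4l, had 101 to 343 CPM (median 308) early and 490 to 1504 CPM (median 1131) late (1.94 ± 0.34, edgeR adjusted p = 0.00794). At steady state mt-Nd4 had 497 to 1641 CPM (median 1204). The mitochondrial share of counts was 0.294% to 0.826% at weeks 3 and 4, under every late library (1.12% to 2.84%, exact permutation p = 0.000799, 2-sided, 5005 arrangements). In steady-state replicates 2 to 8, which follow the order of column numbers, the share was 1.25%, 2.69%, 1.12%, 1.23%, 2.34%, 2.77% and 3.18%. The part of column number in the mitochondrial difference was not tested.

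**Figure D5:**
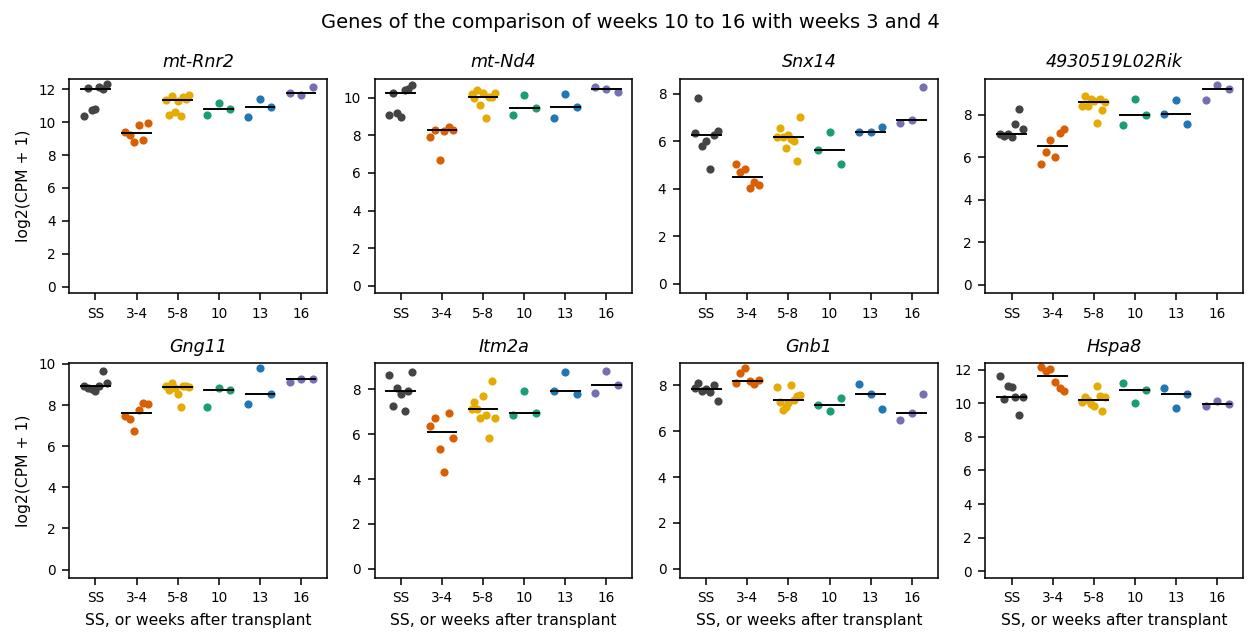
Level of 8 genes in each HSC library as log2(CPM + 1), for steady state (SS), weeks 3 and 4, weeks 5 to 8 and weeks 10, 13 and 16. Points are libraries and lines are group medians; mt-Rnr2, mt-Nd4, Snx14, Gng11 and Itm2a are low at weeks 3 and 4 and overlap the steady-state libraries in the late window, whereas Gnb1 and Hspa8 are high at weeks 3 and 4.

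Of 28 HSC identity genes 1, Pdzk1ip1, was called higher late than at weeks 3 and 4, with 17 above 0 (median 0.24). Pdzk1ip1 had 198 to 382 CPM (median 345) at weeks 3 and 4 and rose by 0.85 ± 0.19 into the late window (edgeR adjusted p = 0.0419). Relative to steady state, in the same fit and with shared libraries, weeks 3 and 4 were lower by a log2 difference of -1.29 (edgeR adjusted p = 0.00136), among 39 genes (0.312%) called there, 7 higher (0.0559%) and 32 lower (0.256%). Gng11, a G-protein gamma subunit, had 105 to 277 CPM (median 198) early, 241 to 878 CPM (median 455) late and 416 to 803 CPM (median 477) at steady state, and rose by 1.32 ± 0.28 (edgeR adjusted p = 0.0227). Itm2a, a membrane protein enriched in HSC, had medians of 68.6 CPM early, 243 CPM late and 246 CPM at steady state and rose by 1.93 ± 0.42 (edgeR adjusted p = 0.0358). The late levels of Gng11 and Itm2a overlapped those of steady state throughout. Late against steady state, these genes differed by -0.06 ± 0.27 and -0.01 ± 0.35 on the log2 scale.

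Other genes that rose had no shared list. Snx14, a sorting nexin that overlaps another gene on the same strand (chromosome 9, 88376750 to 88438958, minus strand), had 15.3 to 31.7 CPM (median 21.7) early, 31.8 to 309 CPM (median 82.1) late and 27.2 to 222 CPM (median 75.9) at steady state, and rose by 2.35 ± 0.51 (edgeR adjusted p = 0.0304). The non-coding RNAs 1600020E01Rik, which lies antisense to Pcbp1, and Gm19590 rose by 2.27 ± 0.51 and 2.06 ± 0.45 (edgeR adjusted p = 0.0401 and 0.0354). 4930519L02Rik stood apart in that it was low early (median 94.2 CPM), intermediate at steady state (137 CPM) and highest late (417 CPM), with a rise of 1.96 ± 0.35 (edgeR adjusted p = 0.00927).

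Gnb1, a G-protein beta subunit (chromosome 4, 155491361 to 155559269, plus strand), was the only gene that fell. It had 267 to 437 CPM (median 293) early and 88.4 to 263 CPM (median 140) late, without overlap, and fell by 1.02 ± 0.23 on the log2 scale (edgeR adjusted p = 0.0415). At steady state Gnb1 had 159 to 271 CPM (median 230). Atp5b, the beta subunit of ATP synthase, had 948 to 2148 CPM early and 185 to 918 CPM late, and Hspa8, the constitutive HSP70 chaperone, medians of 3203 and 1138 CPM. Neither passed adjustment (-1.18 ± 0.28 and -1.13 ± 0.26, edgeR adjusted p = 0.0521 and 0.0544).

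Division genes stood lower late than at weeks 3 and 4 with no single call. Of 28 DNA replication genes 1 was above 0 (median -0.995), and of 26 mitosis genes 1 (median -1.34). Chaperones of the endoplasmic reticulum had 2 of 17 above 0 (median -0.82). Cytosolic ribosomal protein genes on this list were above 0 in 39 of 39 cases (median 0.53), and 0 were called. Rps27, a ribosomal protein gene outside that list, was among the 32 genes that rose (1.66 ± 0.37, edgeR adjusted p = 0.0401). Pf4 and Plac8, which were on the higher side of steady state in the late window, did not separate from weeks 3 and 4: Pf4 had a median of 1019 CPM early and a late difference of 0.21 ± 0.40, and Plac8 a median of 587 CPM early and a difference of -0.28 ± 0.34. Plac8 had been called higher at weeks 3 and 4 than at steady state (1.84, edgeR adjusted p = 0.0118).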

How the data were processed

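Counts per gene are as deposited by the authors (53465 entries, 3433 without a symbol) from SMART-Seq v4 bulk RNA-seq. Per the submitters' processing notes, reads went through Trimmomatic 0.36, HISAT2 2.0.5, Picard and featureCounts on GRCm38; the strand setting is not given in the sources used here. Positions are from GENCODE M21 (GRCm38; 99.6% of IDs matched). CPM was computed from the deposited counts. Genes passing edgeR's filterByExpr were fitted with TMM scaling and the quasi-likelihood test (edgeR 4.0.16, R 4.3.3); limma 3.58.1 and DESeq2 1.42.0 were alternatives, with other scalings, filters, windows and left-out libraries. Intervals are 95%, errors of log2 differences are SE, and genes were called at a Benjamini-Hochberg adjusted p under 0.05. The late window used its 9 libraries and 7 steady-state libraries; weeks 3 and 4 were compared in a fit with all windows. Named genes were up to 10 called per direction by size (filled to 5 by p), up to 4 per list by p, 5 held HSC genes with the narrowest intervals, and sort markers; some genes the rule names are not reported here. Members and the 40 lists were chosen with earlier results of these data known. The scripts were tested on simulated data.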

Additional observations from a re-analysis of the deposited data

Results flagged for a closer look

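Of 164 groups of libraries checked gene by gene on the log2(CPM + 1) scale, 12 had a library far from the rest, a gap to its neighbor of more than 0.568 of the range for 7 libraries or 0.493 for 9. Chance flags about 1 in 20 groups. At steady state, replicate 8 was lowest for Nhp2 (72.3 against 305 CPM in the next library, a gap of 0.827 of the range), Pcna (204 against 395 CPM, 0.613) and Cox5a (132 against 204 CPM, 0.568). Replicate 3 was lowest for Hlf (35.4 against 164 CPM, 0.620). Both are libraries with fewer than 10000 detected genes. Replicate 6 was lowest for Emb (35.0 against 146 CPM, 0.687). Replicate 7 was highest for Gng11 (803 against 534 CPM, 0.619) and Ly6a (796 against 374 CPM, 0.601).

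In the late window, replicate 2 at 13 weeks was highest for Myct1 (662 against 388 CPM, 0.504) and lowest for Ifi44 (1.95 against 27.0 CPM, 0.606). Replicate 3 at 16 weeks was lowest for Id2 (0.216 against 15.3 CPM, 0.568), and replicate 2 at 16 weeks for Slamf1 (0 against 14.8 CPM, 0.494). Replicate 3 at 10 weeks was lowest for Top2a (40.9 against 115 CPM, 0.621).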

How the results depend on the processing

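The count of 0 genes late against steady state held in edgeR under every scaling, filter, window and left-out library, and in DESeq2. limma voom gave 6 and, chosen after seeing the data together with leaving out libraries under 10000 detected genes, 8. Genes bounded within 2-fold numbered 1669 in voom, 1778 without those libraries, and 702 to 995 when leaving out 1 library. DESeq2 called 48, 124 and 445 genes at 10, 13 and 16 weeks and 17 for the slope. At 10 weeks voom called 36. At 16 weeks 15 genes passed without libraries under 10000 detected genes, and 0 to 7 when leaving out 1 library. Against weeks 3 and 4, calls numbered 19 without a filter, 81 over 10 CPM, 324 in DESeq2, 75 in voom (15 of the 33 among them), 17 with steady-state replicate 1 kept and 3 to 216 when leaving out 1 library. They numbered 0 without 3-week replicates 1 to 3 and 4-week replicate 1 (also 0 with the libraries of few genes left out too, chosen after seeing the data) and 0 with weeks 3 to 8 as the early window. The mitochondrial share late minus steady state, -0.13 percentage points, was 0.0299 with steady-state replicate 1 kept and 0.158 without libraries of few genes (-0.292 to 0.0511 when leaving out 1). Detected genes differed by -1346 to 67.3 when leaving out 1. Libraries of the same replicate number correlated at -0.19 to 0.29 (15 pairs) and those of different numbers at -0.26 to 0.32 (75 pairs). Of 11 libraries with a same-number partner, 4 correlated best with their own number. The labels do not describe any pairing by the replicate numbers. With them as a block 20 genes were called against weeks 3 and 4 and 0 in the other comparisons; the block moved the all-gene median from -0.04 to 0.15 and that of HSC identity genes from -0.32 to 0.20, of TGF-beta and BMP genes from -0.44 to 1.33 and of type I interferon genes from -0.31 to 0.37, took the 2-fold bound from Pdzk1ip1, Myct1, Meis1 and Ly6a, and turned Itm2a (0.17), Kit (0.46), Gng11 (0.22), Camp (13.06), Ngp (12.35), Hlf (0.48), Ghr (0.12) and mt-Nd6 (0.26) above 0.

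Other log2 differences from steady state that turned sign were small beside their errors, apart from Retnlg. In voom they were Cd48 -0.033, Slamf1 -0.41, Tceal8 0.017, Mecom -0.21, Kit 0.19, Retnlg -0.58 and mt-Nd6 0.25. Without libraries under 10000 detected genes they were Slamf1 -0.34, Tceal8 0.12, Kit 0.10 and mt-Nd6 0.25. That choice with only genes over 10 CPM gave Slamf1 -0.32, Tceal8 0.13, Kit 0.10 and mt-Nd6 0.25, and with voom Cd48 -0.039, Slamf1 -0.50, Mecom -0.26, Kit 0.21, Retnlg -0.72 and mt-Nd6 0.24. Averaging the weeks gave Cd48 -0.071 and Retnlg -0.96. With steady-state replicate 1 kept, Cd48 was -0.14, Itm2a 0.12, Tceal8 0.10 and Gng11 0.11. In the 12 libraries whose column numbers run from 61 to 96, fitted in blocks of 12 numbers, Cd48 was -0.50, Itm2a 0.038, Tceal8 0.32, Hspa8 0.34 and Retnlg -3.64. Itm2a was 0.0094 without a filter and 0.0037 with all 31 HSC libraries. Leaving out 1 library gave ranges of -0.69 to 1.69 for Cd48, -0.15 to 0.18 for Itm2a, -0.13 to 0.27 for Tceal8, -0.39 to 0.077 for Kit, -0.17 to 0.096 for Gng11 and -0.41 to 0.13 for mt-Nd6. The causes were not tested. Late medians of Fgd5 and Robo4 (0.893 and 0.186 CPM), and that of Plk2, lie near or under what a count of 0 allows (0.466 to 0.659 CPM).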

Other observations

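Several gene groups had late medians near 0 against steady state, with members on both sides and 0 genes called in edgeR; a median near 0 does not bound the members. Redox genes had 11 of 21 above 0 (median log2 difference 0.02) and, among 20 members of at least 10 CPM, 8 intervals within 2-fold, and cytosolic chaperones 7 of 15 (median -0.06) and 6 of 13 within 2-fold. Glycolysis genes had 8 of 19 above 0 (median -0.04) and 2 of 18 within 2-fold, and cholesterol synthesis genes 7 of 15 (median -0.04) and 0 of 12. Homing and adhesion genes had 7 of 15 above 0 (median -0.07) and 2 of 14 within 2-fold, and erythroid priming genes 4 of 9 (median -0.08) and 1 of 7. The 4 imprinted growth genes tested were all below 0 (median -0.63), and 5 of 7 MHC class II genes were above 0 (median 0.24). S100a6, a calcium-binding protein, had medians of 149 CPM at steady state and 220 CPM late (0.80 ± 0.36). Prtn3, a granule protease of granulocyte progenitors, had medians of 454 and 219 CPM (-0.71 ± 0.37).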
